A study of Rattus norvegicus with 12 samples.

Results

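TDN treatment of the mechanically injured rat urethra was compared with injury that received no further treatment named in the labels. The comparison used 6 of the 12 labelled RNA sequencing libraries of the series, chosen by their treatment label: 3 of urethral injury with TDN and 3 of urethral injury alone. TDN stands for tetrahedral DNA nanostructure. All 6 libraries came from urethral tissue of male rats with the injury, so they differ by TDN and share the injury. The labels give no strain, age, dose, route or time of harvest. They do not say whether tissue of several animals was pooled, and although the design mentions a vehicle, no label places it in the injury group. Libraries of sham tissue (no injury) and of injury with rapamycin, an inhibitor of the mTOR kinase, numbered 3 each and entered the same fit. The series set out to describe how the tissue's transcripts change with injury and with TDN.

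A tetrahedral DNA nanostructure is a small cage that forms by itself from short synthetic DNA strands with matching ends. Such cages can enter cells without a transfection reagent, and they have been studied as carriers and as agents that dampen inflammation and oxidative stress. A wounded urethra is closed by regrowth of its epithelium, while inflammatory cells enter and fibroblasts lay down collagen. Too much collagen narrows the channel, a state called stricture.

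Genes are identified here by Ensembl ID, because the count table does not pair its IDs with symbols and the name table used here (47357 rat genes) matched 0 of the 32623 IDs. Gene groups and cell type markers, including those that define urethral tissue, were therefore not evaluated, and 2 IDs in each direction are given. Of the 32623 genes, 17521 had enough counts to be tested. Among all 32623 genes, 16708 had at least 1 count in each of the 6 libraries and 10956 had none in any of them. The TDN libraries held 48494270 to 52531529 counts and the injury libraries 49403631 to 55928721, so that 3 counts correspond to 0.0541 to 0.0588 CPM (counts scaled to a common library size). Detected genes, those with a count, numbered 19052 ± 115 per TDN library and 18836 ± 203 per injury library (SD, n = 3 each). In bulk tissue, fewer cells of a type and less RNA per cell cannot be told apart.

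The injury libraries were far from alike, and replicate 3 stood nearer to the TDN libraries than to its own group. Distance was measured by squaring the difference in log2 CPM of each gene and taking the root of the mean over the 17521 tested genes. Injury replicate 3 lay at 0.857, 0.859 and 0.936 from TDN replicates 1, 2 and 3. Its distance was 1.541 to injury replicate 1 and 1.356 to injury replicate 2. Injury replicate 1 lay at 0.912 from injury replicate 2, but at 1.43, 1.505 and 1.424 from the TDN libraries. Injury replicate 2 lay at 1.222, 1.26 and 1.145 from them. The TDN libraries formed the tighter set, at 0.666, 0.733 and 0.702 from each other. Sham libraries lay at 0.654, 0.906 and 0.779 from each other, so distances below 1 within a group were not particular to TDN.

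**Figure D1:**
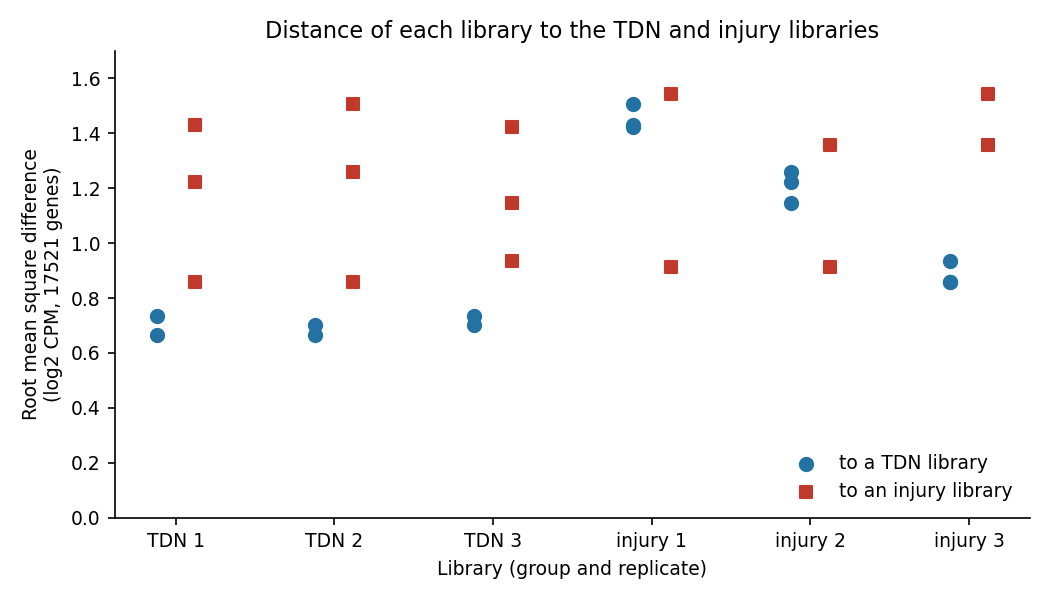
Root mean square of the log2 CPM differences over 17521 tested genes (y axis) between each of the 6 libraries (x axis) and every TDN library (circles) or every injury library (squares). Injury replicate 3 lies below 1 from the TDN libraries and at 1.356 and 1.541 from the other injury libraries, while TDN libraries lie at 0.666 to 0.733 from each other.

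The same order held among the 10055 genes with a mean of at least 10 CPM, where counting error is small. There, injury replicate 3 differed from the TDN libraries by 0.528 to 0.601, and from injury replicates 1 and 2 by 1.187 and 1.007. The TDN libraries differed from each other by 0.362 to 0.447. For scale, the sham libraries lay at 0.555 to 0.948 from the TDN libraries over these genes, so that injury replicate 3 lay within or below the distances that separate TDN from uninjured tissue. Whether injury replicate 3 had a milder injury, or tissue other than its label says, was not tested, since the labels hold no measure of the injury and no symbol was at hand to check them. This limits what every value of TDN against injury stands for. Because this library stood apart, several results are given below with and without it. The interval counts, the very large differences, the stricter gene sets and the DESeq2 and quality-weighted calls are given only with it.

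How far each injury library departed from TDN can be counted gene by gene. Injury replicate 1 was above all 3 TDN libraries for 39.6% of tested genes and below all 3 for 44.3%. Injury replicate 2 was above for 39.5% and below for 39.3%. Injury replicate 3 was above for 26.6% and below for 27.4%, and lay inside the TDN range for 46.0% of genes, against 16.1% and 21.2% in replicates 1 and 2. Differences of more than 1 on the log2 scale from the TDN mean, that is over 2-fold, were found in replicate 1 for 2835 genes above and 4046 below. In replicate 2 they were found for 1743 genes above and 2950 below, and in replicate 3 for 902 above and 849 below. For the sham libraries, 34.8 to 37.3% of genes lay inside the TDN range.

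Levels varied less from library to library in injury with TDN than in injury alone. The SD of log2 CPM between the 3 libraries had a median over genes of 0.185 in TDN and 0.514 in injury, and it was lower in TDN for 14637 genes, or 83.5%. The level of a gene differed by more than 1 on the log2 scale between the lowest and highest library for 14.8% of genes in TDN and for 49.1% in injury. Without injury replicate 3 the median SD in injury was 0.287, and the SD was still lower in TDN for 11016 of 17521 genes. That SD rests on fewer libraries in injury than in TDN, so the values are not strictly alike. The share with the lower SD in TDN was 68.5% for genes averaging under 1 CPM, 82.8% from 1 to 10 CPM, 88.6% from 10 to 100 CPM and 86.7% over 100 CPM. These are descriptions without a test, since each group has 1 spread per gene and genes are not independent. The SD was not computed in sham. Sham libraries lay at 0.654 to 0.906 from each other over all tested genes, and TDN libraries at 0.666 to 0.733.

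**Figure D2:**
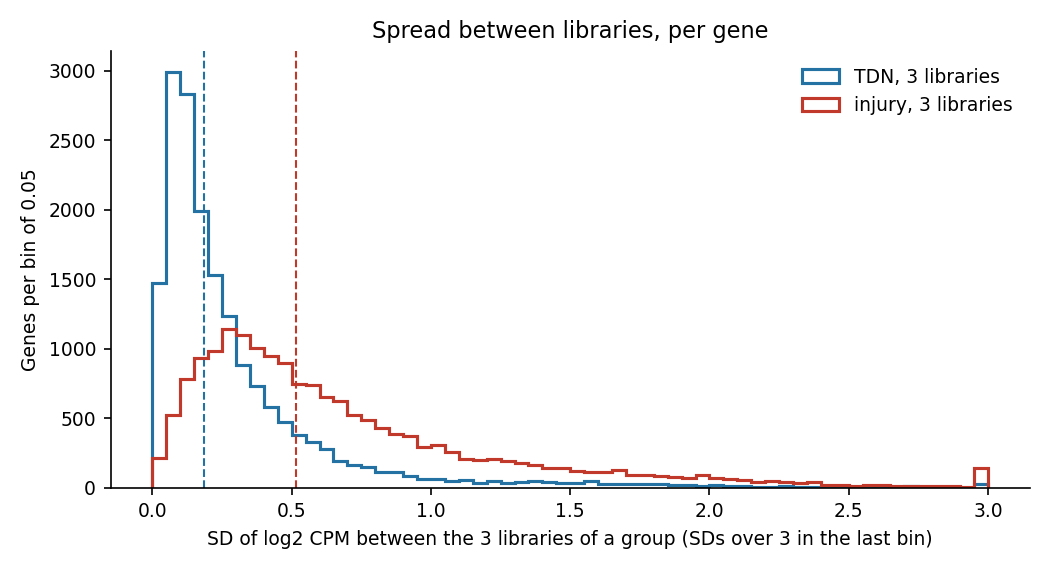
Number of genes (y axis) by the SD of log2 CPM between the 3 libraries of a group (x axis), for TDN and for injury. The dashed lines mark the medians, 0.185 in TDN and 0.514 in injury.

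No gene met the adjusted threshold when TDN was tested against injury. The quasi-likelihood test of edgeR, fitted to all 12 libraries with Benjamini-Hochberg adjustment, called 0 genes higher and 0 lower at an adjusted p under 0.05 (0% of 17521 in each direction), and the smallest adjusted p was 0.204. At an unadjusted p under 0.05, 294 genes were higher (1.68%) and 780 lower (4.45%). Limma voom, another test on the same genes, also called 0 at the adjusted threshold, and its unadjusted list leaned the other way, with 1118 higher and 490 lower. The balance of the unadjusted list therefore gives no direction for the response. DESeq2 called 20 genes higher (0.116%) and 24 lower (0.139%) of the 17267 genes for which it gave a p. Limma voom with sample quality weights called 6581 genes (37.6%). Its weights were 0.433, 2.10 and 0.204 for injury replicates 1, 2 and 3, so the injury group rested mostly on replicate 2. They were 1.66 to 3.19 for the TDN libraries, and the lowest of all was 0.0740 for rapamycin replicate 2.

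The unadjusted list shifted with single libraries. Without injury replicate 3 it held 2077 higher and 1905 lower genes, and still 0 passed edgeR's adjusted threshold. Without injury replicate 1 it held 123 and 245. It held 172 and 488 without TDN replicate 1, 153 and 296 without TDN replicate 2, and 181 and 379 without TDN replicate 3. Libraries outside the comparison, which share the estimate of the spread, moved it too. It held 955 and 2366 without rapamycin replicate 2, and 496 and 1273 without rapamycin replicate 3. Without the whole rapamycin group it held 1130 and 2547 of 17277 tested genes. The 6 TDN and injury libraries alone gave 550 and 1387 of 16871.

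The fitted differences were centred close to zero. Their median was -0.004 on the log2 scale, with 90% of genes between -1.30 and 1.23. Scaling by library size alone moved this median to 0.104. A difference of more than 1 was fitted for 1485 genes higher in TDN and 1423 lower. The standard error of a gene's log2 fold change had a median of 0.45, and its 95% interval reached a median of 1.0 to each side. For 4902 genes (28.0%) the interval lay wholly inside 2-fold in either direction, so a larger change was outside their intervals. That share was 0.138% under 1 CPM, 11.0% from 1 to 10 CPM, 43.2% from 10 to 100 CPM and 46.0% over 100 CPM. For 94 genes the interval lay wholly beyond 2-fold, and 41 of these averaged under 1 CPM. The intervals are not adjusted for the number of genes.

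The TDN and injury libraries did not overlap at all for 3418 genes. With 3 libraries in each group, some genes separate in this way by the order of libraries alone. How many would do so was not computed, so the count is no measure of a response to TDN. All TDN libraries were above all injury libraries for 1787 genes (10.2%) and below them for 1631 (9.31%). The median fitted log2 difference was 0.80 among the former and -0.71 among the latter. The injury library closest to TDN was replicate 3 for 77.2% of the 1787 and for 75.1% of the 1631. The injury library farthest from TDN was replicate 1 for 64.4% and 69.4%. Without injury replicate 3, 5715 genes were higher without overlap (32.6%) and 5356 lower (30.6%), and the total without TDN replicate 1 was 5383. Fewer libraries can separate more easily, and the totals without any other TDN or injury library were 4147 to 4793.

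**Figure D3:**
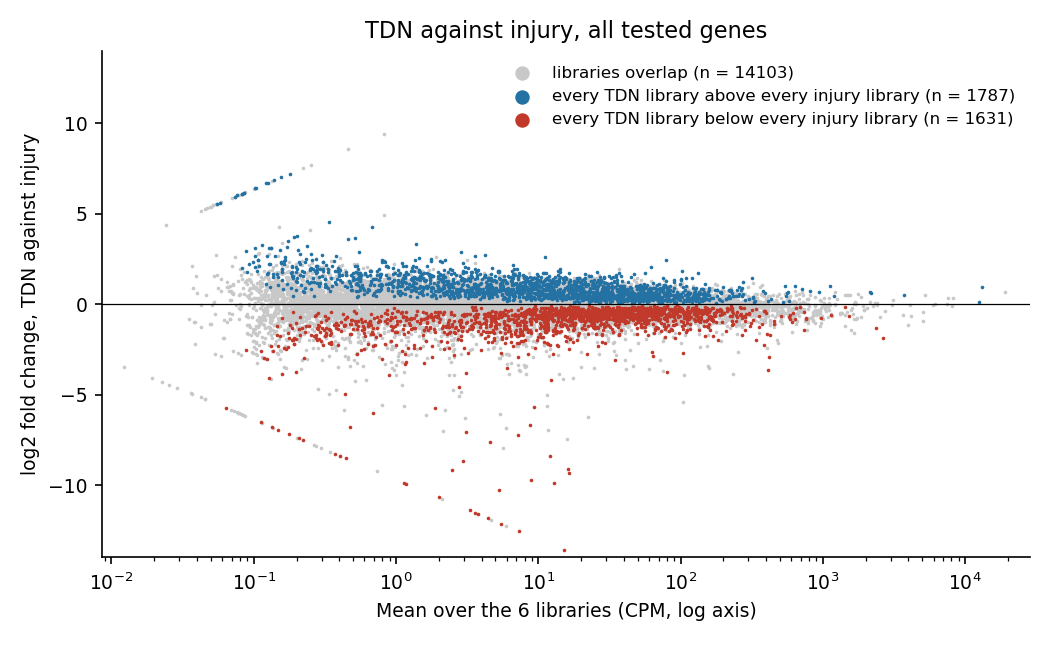
Fitted log2 fold change of TDN against injury (y axis) by mean level over the 6 libraries in CPM (x axis, log scale), 1 point per tested gene, without the 2 genes that had no count in these libraries. Genes whose libraries do not overlap are coloured, with 1787 above and 1631 below, and the straight diagonal edges hold genes without a count in 1 group.

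Among genes with a mean over 1 CPM in the 6 libraries, very large fitted differences lay on the lower side. There, 49 genes were lower in TDN by more than 4 on the log2 scale and 0 were higher by as much. A single high library could meet that mean. Below it, fitted differences beyond 4 occurred in either direction, as in ENSRNOG00000032180 (6.712) and ENSRNOG00000057022 (-7.189). In 37 of the 49, injury replicate 3 stood more than 4-fold above the other injury libraries, so these differences rested on that library. Among all genes without overlap, an injury library that exceeded the next by more than 4-fold was found in 37 of the 1631 genes lower in TDN. That library was replicate 3 in 27 of them, replicate 1 in 10 and replicate 2 in 0. Among the 1787 genes higher in TDN, an injury library lay 4-fold below the next in 47, which was replicate 1 in 27, replicate 2 in 16 and replicate 3 in 4.

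Genes with no count in 1 group were counted as well. In 23 genes all TDN libraries had 0 counts and each injury library more than 3. Summed over these 23 genes, injury replicate 3 held 14294 counts, against 423 in replicate 1 and 342 in replicate 2. A few genes carried this sum, 4849 counts of it from ENSRNOG00000008367 and 2349 from ENSRNOG00000032859, and the highest injury library was replicate 1 in 8 of the 23 genes, replicate 2 in 6 and replicate 3 in 9. The sham libraries held 115, 228 and 758 counts of the same genes. Averaged over the injury libraries, 8 of the 23 exceeded 1 CPM. In 29 genes the pattern was opposite, with 0 counts in all injury libraries and more than 3 in each TDN library. Their summed counts were even over the TDN libraries, at 284, 259 and 256, and none exceeded 0.357 CPM on average.

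A stricter set required an unadjusted p under 0.05, no overlap, and 5 CPM or more on average in whichever group was higher. It held 146 genes higher in TDN, with a median log2 fold change of 0.89, and 397 lower, with a median of -1.07. These values chose the genes and are given as a description. Set against the TDN mean, the 146 genes lay at medians of -1.32, -1.01 and -0.55 on the log2 scale in injury replicates 1, 2 and 3. The 397 genes lay at 1.49, 0.97 and 0.52. Injury replicate 1 was thus farthest and replicate 3 nearest in either set.

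The levels in sham and rapamycin were not a criterion for these genes, but those libraries entered the p through the shared estimate of the spread, and their distances are taken from the same TDN mean. The 146 genes lay slightly above the TDN mean in sham, by medians of 0.14, 0.26 and 0.41 in replicates 1 to 3. The 397 genes lay slightly below it, by medians of -0.28, -0.30 and -0.11. In rapamycin replicates 1, 2 and 3 the 146 genes were at -0.98, -1.14 and -0.41, and the 397 genes at 0.94, 1.44 and 0.34, on the side of the injury libraries. Rapamycin replicate 3 was again close to TDN, at a distance of 0.725 from the TDN mean over all tested genes. That value was 1.338 and 2.299 for rapamycin replicates 1 and 2, and 1.396, 1.14 and 0.787 for injury replicates 1 to 3. For sham replicates 1 to 3 it was 1.033, 0.945 and 0.785. Replicate 3 was thus the nearest to TDN in each of these groups, and the reason was not tested.

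**Figure D4:**
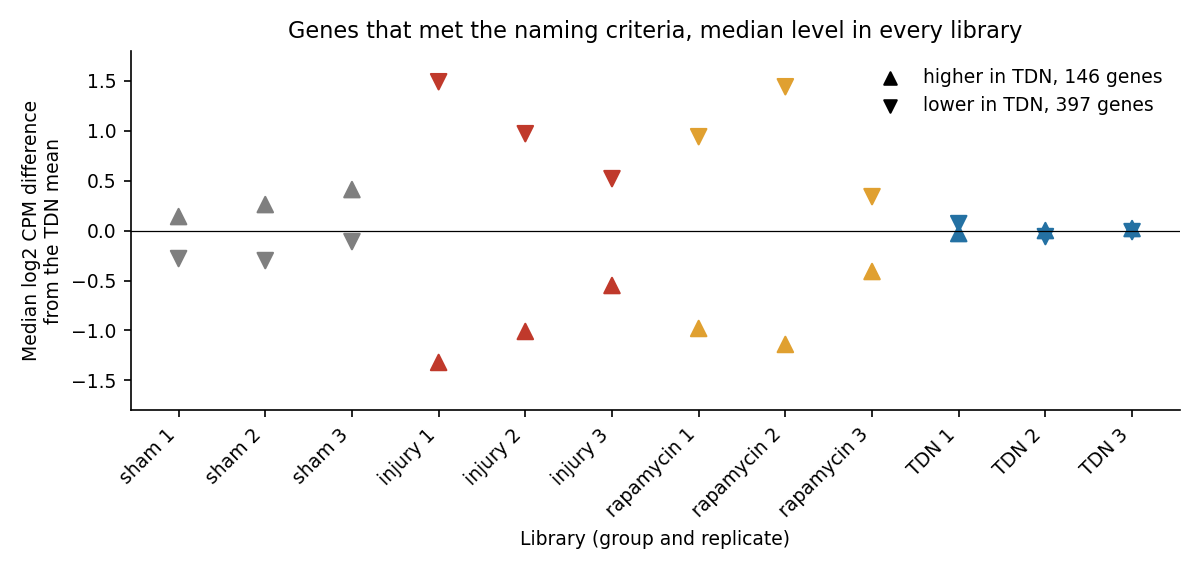
Median difference in log2 CPM from the TDN mean (y axis) in each of the 12 libraries (x axis), for the 146 genes higher in TDN (upward triangles) and the 397 lower (downward triangles). The genes were chosen for their difference between TDN and injury, injury replicates 1 to 3 lie at -1.32, -1.01 and -0.55 for the first set, and sham lies at 0.14 to 0.41.

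At the median, genes called by DESeq2 lay farther from the TDN mean than the stricter sets in every injury library. Replicate 3 was again nearest. DESeq2 gave no p for 254 tested genes, among them ENSRNOG00000008367 and ENSRNOG00000032859, which were highest by far in injury replicate 3. Genes without a p could not be called, so these levels cannot be separated from the selection. The 20 genes called higher lay at medians of -2.37, -2.30 and -1.64 in injury replicates 1, 2 and 3 relative to the TDN mean, and their libraries did not overlap in 20 of 20. The 24 genes called lower lay at 2.50, 2.44 and 1.69, without overlap in 21. Over all tested genes, 10.2% were higher without overlap and 9.31% lower. DESeq2 chose its genes from the same libraries, so their high share without overlap is no separate result. In sham the 20 genes were at 0.38 to 0.46 and the 24 genes at -0.07 to 0.00 relative to the TDN mean. The 44 genes were picked for this contrast by a test whose calls edgeR and limma voom did not share. Of the 44, 42 were among the 6581 genes of the weighted fit, which called 37.6% of all tested genes. Since it used the same libraries, that overlap is not separate evidence.

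Of the IDs given by rule, ENSRNOG00000001130 had the largest fitted difference among the 146 genes higher in TDN that met the rule, which leaves out genes under 5 CPM. It was at 4.05, 4.95 and 6.05 CPM in the TDN libraries and at 0.333, 0.385 and 1.33 CPM in injury replicates 1, 2 and 3. Every TDN library was thus above every injury library. The log2 fold change was 2.87 (SE 0.77, 95% interval 1.17 to 4.57), which did not pass (edgeR adjusted p = 0.649). DESeq2 called it (adjusted p = 0.0315), and over all 23 alternatives the adjusted p ran from 0.00324 to 0.990. Without injury replicate 3, the highest of its group, the log2 fold change was 3.79 (edgeR adjusted p = 0.139). Sham libraries held 7.61, 6.13 and 6.67 CPM, all above the TDN libraries, and rapamycin libraries held 1.15, 0.203 and 2.34 CPM, all below them. In the same fit its log2 difference between injury and sham was -3.31 (SE 0.78, edgeR adjusted p = 0.0719) and between TDN and sham -0.44 (SE 0.71, edgeR adjusted p = 1). These contrasts share libraries, so they are not separate evidence.

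The second ID, ENSRNOG00000018384, was high in TDN and not in sham. TDN libraries held 11.4, 4.49 and 5.90 CPM, and injury libraries held 1.06, 0.943 and 1.37 CPM. The injury values were close to each other here, replicate 3 included, and below every TDN library. The log2 fold change was 2.69 (SE 0.73, 95% interval 1.09 to 4.29), which did not pass (edgeR adjusted p = 0.649). DESeq2 called it (adjusted p = 0.0435), and over all 23 alternatives the adjusted p ran from 0.00891 to 0.990. Without injury replicate 3 it was 2.86 and without TDN replicate 1, the highest library, 2.21. Sham held 0.677, 1.52 and 1.25 CPM, so sham and injury overlapped and every TDN library was above both. The log2 difference was 2.66 between TDN and sham (SE 0.73, edgeR adjusted p = 0.385) and -0.03 between injury and sham (SE 0.69, edgeR adjusted p = 0.980). Rapamycin replicate 3 held 6.17 CPM, inside the TDN range, and rapamycin replicates 1 and 2 held 1.57 and 0.745 CPM.

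ENSRNOG00000008367 had the largest fitted difference among the 397 genes lower in TDN that met the rule, and most of its size rested on a single library. It had 0 counts in all TDN libraries. Injury replicates 1 and 2 held 1.25 and 0.424 CPM, while replicate 3 held 89.7 CPM, from 4849 counts. Its injury mean was 30.5 ± 51.3 CPM (SD, n = 3), and TDN was at least 553-fold lower, computed against a floor of 3 counts per TDN library (0.0551 CPM). Without injury replicate 3 it was at least 15.2-fold lower (edgeR adjusted p = 0.245). The difference over all libraries did not pass (edgeR adjusted p = 0.649), and DESeq2 gave no p for it. Over the 22 alternatives with a value the adjusted p ran from 0.0702 to 0.990. Sham was at 0, 0.350 and 3.31 CPM and rapamycin at 0.357, 15.0 and 0 CPM, so single high libraries were not limited to injury.

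ENSRNOG00000032859 followed the same pattern. It had 0 counts in all TDN libraries, 0.157 and 0.0770 CPM in injury replicates 1 and 2, and 43.5 CPM in replicate 3. TDN was at least 264-fold lower than the injury mean against the same floor, and at least 2.12-fold lower without injury replicate 3. Injury replicates 1 and 2 rest on 8 and 4 counts. Sham held 0.0732, 0.245 and 2.86 CPM, again highest in replicate 3, and rapamycin 0.0929 to 0.135 CPM. The difference did not pass (edgeR adjusted p = 0.649, and 0.186 without injury replicate 3), and DESeq2 gave no p for it. Over the 20 alternatives with a value the adjusted p ran from 0.138 to 0.990.

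**Figure D5:**
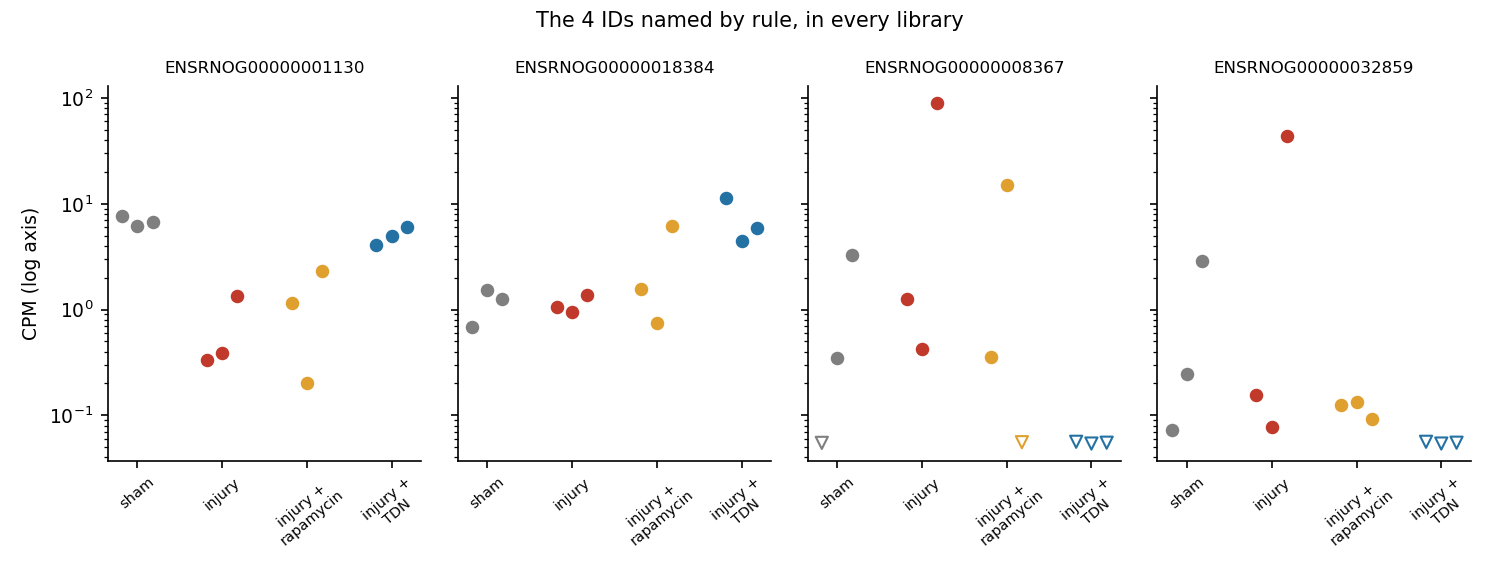
CPM (y axis, log scale) of the 4 IDs in each of the 12 libraries, grouped by treatment and ordered by replicate within a group. Open triangles mark libraries with 0 counts, drawn at the level of 3 counts, and the left pair of IDs is lower in every injury library than in every TDN library, while the right pair reaches 89.7 and 43.5 CPM in injury replicate 3.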

How the data were processed

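Per the labels' protocols, poly(A)-enriched libraries were made from total RNA of urethral tissue. The authors deposited whole-number counts per Ensembl gene ID, without normalization. Per the submitters' processing notes, the genome build was rat Rnor 6.0. No source used here names the aligner, counter, annotation release or strand setting, so overlapping, antisense or near-identical genes may share reads. The 12 columns named in the titles were used and 3 further columns were not. Whether libraries came from separate animals is not stated, so p-values measure the spread between libraries, which may be technical.

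From these counts, edgeR 4.0.16 in R 4.3.3 was run with TMM scaling, its default expression filter (17521 of 32623 genes kept) and 1 coefficient for each of the 4 groups (common biological coefficient of variation 0.504, 8 residual degrees of freedom). CPM used TMM-scaled library sizes, and log2 CPM a prior count of 2. Standard errors are the absolute log2 fold change over the square root of F, and 95% intervals are approximate. Floors cover counting error only. The rule for IDs took an unadjusted p under 0.05, no overlap between TDN and injury, at least 5 CPM in the higher group, and the 2 largest fitted log2 fold changes per direction. Its symbol criterion and 31 gene lists fixed by symbol could not be applied. Lists and comparison were chosen with earlier results of these data known. Alternatives were DESeq2 1.42.0, limma 3.58.1 voom, other scalings, filters and library subsets. The edgeR script was run on simulated data, which checked only that planted fold changes were recovered at the median. That run set no requirement on the genes called.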

Additional observations from a re-analysis of the deposited data

How the results depend on the processing

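The count of 0 genes called by edgeR between TDN and injury also came out under 3 other scalings, 2 other filters, a fit of the 6 TDN and injury libraries alone, a fit without the rapamycin group, limma voom, and without each of the 12 libraries in turn. DESeq2 called 44 genes and voom with sample quality weights 6581, and the cause was not tested. With the replicate number as a block, edgeR called 0 genes (965 higher and 672 lower by unadjusted p alone, smallest adjusted p = 0.510). Deviations of same-numbered injury and TDN libraries correlated at 0.072, -0.109 and -0.188, so the numbers were not taken to pair injury with TDN. Sham and rapamycin were not part of that check. Replicate 3 was nearest to the TDN mean in sham, injury and rapamycin alike. Genes without overlap numbered 4147 to 11071 when 1 TDN or injury library was left out (counts added after the data were seen), the highest without injury replicate 3. The direction of the 4 IDs did not reverse in any alternative that gave a value. Gene list medians were not run, because the IDs carry no symbols. Depth and spread limited low genes most: the 95% interval of a log2 fold change reached a median of 2.21 to each side under 1 CPM and 1.22 from 1 to 10 CPM, against 0.74 from 10 to 100 CPM and 0.70 over 100 CPM.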
